A study of Homo sapiens with 9 samples.

Results

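The genes described here encode the proteins of the cytoplasmic ribosome, the machine that translates nuclear-encoded messenger RNA. They were chosen by symbol alone: RPL or RPS followed by a number and at most 1 letter (A, X or L), together with RPLP0, RPLP1, RPLP2 and RPSA. The rule found 82 of the 58037 genes of the deposited table, 49 of the large and 33 of the small subunit. FAU, a fusion with a ubiquitin-like protein, and the paralogs with a longer suffix (RPL7L1, RPL22L1, RPL26L1, RPL36AL) are among the genes outside this rule, which are given as a separate list. Symbols ending in L are kept by the rule, so that paralogs are among its members. RPL3L (muscle), RPL10L and RPL39L (testis) are known for restricted expression, RPS27L is a paralog induced by p53, and RPS10L is annotated as a processed pseudogene.

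RNA sequencing of total RNA was carried out in 3 human triple-negative breast cancer cell lines, MDA-MB-453, MDA-MB-231 and MDA-MB-436, grown in DMEM with serum. Each line gave 1 library labelled GSK343, 1 labelled shEZH2 and 1 labelled as an untreated control, which makes 9 libraries and 3 per group. The compound GSK343 blocks the catalytic activity of EZH2, the methyltransferase of the Polycomb repressive complex, and shEZH2 is a short hairpin RNA against its transcript. The column headers name the controls shControl, whereas their labels give no treatment. Dose, time, hairpin sequence and whether cells were clones or pools are not stated. The study asked how expression changes in these lines when EZH2 is depleted or inhibited. Only 1 culture stands for each line and treatment, so the lines serve as replicates and p-values measure the spread among these libraries.

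Ribosomal proteins are made in nearly equal numbers and assembled in the nucleolus with ribosomal RNA, so their genes are known for high and coordinated expression. Most of their messenger RNAs begin with a C followed by a run of pyrimidines, the terminal oligopyrimidine or TOP start. The protein LARP1 binds this start, and the kinase mTOR controls translation through it, whereas transcription of the genes is driven in part by MYC and by ETS-family factors. Surplus RPL5 and RPL11 bind MDM2 and so stabilise p53, which ties the module to growth arrest.

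The starts of the genes on which the results below turn are shown for what they share and where they differ. Each line gives 20 bases before and 20 bases from the start annotated by RefSeq (GRCh38.p14), 5′ to 3′ on the gene's strand, and capitals mark the run of C followed by at least 4 pyrimidines whose first base lies nearest that start, within 10 bases of it. Other runs in the window are left in lower case.
RPS28, chr19:8321476-8321515, plus strand: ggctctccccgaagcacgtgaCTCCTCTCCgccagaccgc
RPS10, chr6:34426050-34426089, minus strand: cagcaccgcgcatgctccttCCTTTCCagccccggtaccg
RPL10A, chr6:35468381-35468420, plus strand: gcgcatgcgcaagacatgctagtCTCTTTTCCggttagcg
RPL4, chr15:66504836-66504875, minus strand: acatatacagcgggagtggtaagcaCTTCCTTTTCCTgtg
RPS27, chr1:153990742-153990781, plus strand: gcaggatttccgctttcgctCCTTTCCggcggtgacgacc
RPL39, chrX:119791611-119791650, minus strand: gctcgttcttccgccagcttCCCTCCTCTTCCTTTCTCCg
RPL34, chr4:108620556-108620595, plus strand: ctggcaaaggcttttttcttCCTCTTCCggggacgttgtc
RPS27L, chr15:63157458-63157497, minus strand: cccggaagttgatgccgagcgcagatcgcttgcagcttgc

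In RPS10, RPS27, RPL39 and RPL34 the marked run is read from the annotated start onward, and further pyrimidines lie directly before it. The marked run begins 1 base after it in RPS28, 3 bases after it in RPL10A and 5 bases after it in RPL4, and RPS27L has none. RPL34 has a second annotated start in the table without such a run, and only the start with one is shown. RefSeq promoters were found for 64 of the 82 genes, and 46 of these (71.9%) had a TOP start, read from an annotated start onward whatever bases precede it, against 5.14% of the 27305 genes in the table. The ETS-type motif CCGGAAG lay within 250 bases before to 50 bases after a start, on either strand, in 35.9% of the ribosomal protein genes and in 12.2% of all genes. The shares for GGGCGG, the GC box, were 59.4% and 48.3%, those for AAGATGG 12.5% and 7.11%, and those for CACGTG, the E-box bound by MYC, 6.25% and 8.77%. A match is a stretch of letters and not evidence of a bound factor.

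The libraries held 1.48e+07 to 1.83e+07 reads, as recovered from the smallest steps of the RPKM values, and 22975 to 27230 genes above 0. EZH2 had 7.99, 5.77 and 7.53 RPKM in GSK343 libraries and 16.2, 16.4 and 37.4 RPKM in shEZH2 libraries, against 42.3, 27.4 and 38.9 RPKM in the controls (MDA-MB-453, MDA-MB-231 and MDA-MB-436 in this order, as for all values by line below). The transcript was thus lowest under the inhibitor label and near its control in the MDA-MB-436 library labelled shEZH2, so treatment groups are libraries carrying a label, and whether labels were exchanged was not tested. Of 16 luminal markers, which MDA-MB-453 is known to express, 0 were highest in all 3 libraries labelled MDA-MB-453, whereas MDA-MB-231 held 5 of them and MDA-MB-436 held 2. The identity on the MDA-MB-453 label is therefore not borne out by its defining markers, and counts and medians of the treatment comparisons are also given without these libraries. The 4 leukocyte markers summed to at most 0.42 RPKM and the 5 stromal markers to at most 8.33 RPKM in any library.

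Ribosomal protein transcripts were abundant, but their mean levels spread from 1.17 to 1099 RPKM among the genes tested. RPL8, whose protein lies at the peptidyl transferase centre, was the most abundant member with a mean of 1099 RPKM over the 9 libraries. It was followed in the large subunit by RPL35 (263.2), RPL11 (261.7), the stalk protein RPLP2 (253.4) and RPLP0 (228.7), which anchors the stalk. Among the abundant small-subunit genes were the X-linked RPS4X (370.7), RPS6 (329.7), the substrate of the S6 kinases, RPS12 (274.3) and RPS21 (212.3). Medians of the mean RPKM were 79.4 over the 47 large-subunit and 64.6 over the 32 small-subunit genes that reached 1 RPKM in at least 3 libraries, the condition for testing (79 of 82 genes). The genes that did not reach it were RPL3L (mean 0.10 RPKM), RPL10L (0.14 RPKM) and RPS10L (0.25 RPKM), with at most 10, 4 and 5 reads in a library. They passed or failed on level alone, so what follows is about 79 genes and not about all 82.

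At the other end, RPL7 averaged 1.17 RPKM, RPL36A 1.36 RPKM and RPS3A 2.17 RPKM, although the proteins of RPL7 and RPS3A are constituents of every ribosome. RPL36A has a paralog outside the rule, RPL36AL, which had 67.8 to 222.0 RPKM. Low values went with processed pseudogenes, copies of a messenger RNA inserted elsewhere in the genome. The table holds 1004 genes named as pseudogenes of the 79, 61 of them for RPL7. The 13 ribosomal protein genes with at least 20 such rows had a median of 7.39 RPKM, with a range of 1.17 to 370.7, against 85.3 RPKM for the other 66 genes. This division was chosen after the values were seen. Spearman's correlation between the number of such rows and mean RPKM was -0.31 over the 79 genes, which share the same 9 libraries. How reads that match several places were counted is unknown here, and the part of these copies in the low values was not tested. The levels of these genes are therefore uncertain.

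The pairs of paralogs differed in which partner was higher in RPKM. RPL39L averaged 22.2 RPKM, with a range of 15.3 to 26.5, while RPL39, which lines the exit tunnel, averaged 4.88 RPKM. RPS27 averaged 14.3 RPKM and RPS27L 4.24 RPKM. RPL3 averaged 148.9 RPKM and RPL10 92.6 RPKM, against their paralogs at 0.10 and 0.14 RPKM. RPL39 has 14 named pseudogene rows and RPL39L has 0, so the 2 levels are not measured under the same conditions.

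**Figure D1:**
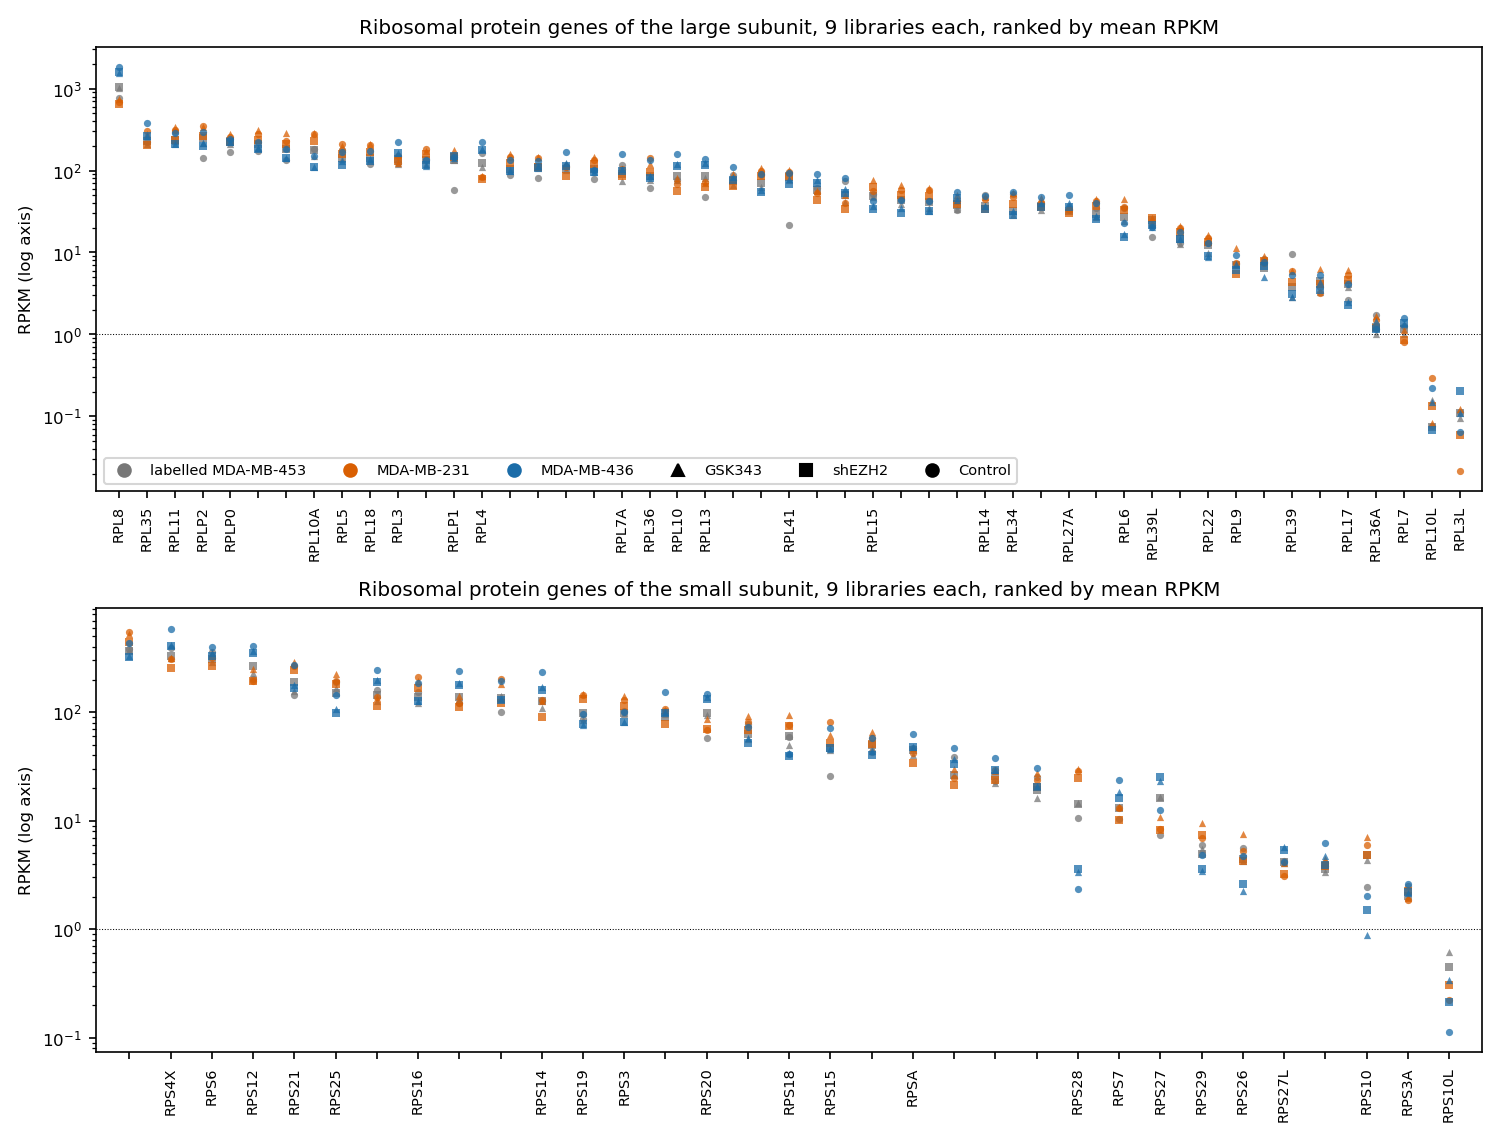
RPKM (log axis) of each ribosomal protein gene in each of the 9 libraries, large subunit above and small subunit below, ranked by mean. Colours are the lines, shapes the treatments, the dotted line is 1 RPKM, values of 0 are not drawn, and genes named in the text are labelled. RPL8 averages 1099 RPKM and RPL7 1.17 RPKM, and RPS28 stands low in the MDA-MB-436 libraries.

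Together the 82 genes made up 2.66% to 3.86% of the summed RPKM of a library. GSK343 libraries averaged 3.04% ± 0.33 and shEZH2 libraries 2.99% ± 0.17, against 3.38% ± 0.49 in the controls (SD, n = 3 each). By line it was 2.83% ± 0.16 under the MDA-MB-453 label, 3.15% ± 0.30 in MDA-MB-231 and 3.43% ± 0.38 in MDA-MB-436 (SD, n = 3 each). These ranges overlapped in every pairing of treatments. Summed small-subunit RPKM over summed large-subunit RPKM was 0.61 to 0.65 in 8 libraries and 0.71 in the control labelled MDA-MB-453. RPL8 alone held 7.59% to 8.47% of the members' RPKM in MDA-MB-231, against 16.4% to 18.5% in MDA-MB-436. In bulk RNA, fewer cells and less RNA per cell cannot be told apart, and RPKM gives relative levels, so an equal loss from all transcripts would not be seen.

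In the comparison of GSK343 with control, RPS27 was the only ribosomal protein gene that passed the threshold, an adjusted p under 0.05 in limma fitted on log2(RPKM + 1) with line and treatment as terms and adjusted over 12965 genes. It was 1 of 79 genes, 0 of 47 in the large and 1 of 32 in the small subunit, where 7.85% of all genes tested passed, 6.25% higher and 1.6% lower. The median log2 fold change of the 79 was -0.10, against 0.06 for all genes tested, and by line it was -0.09, 0.12 and -0.36.

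RPS27, a zinc-finger protein of the small subunit, had 16.6, 10.9 and 23.2 RPKM in the libraries labelled GSK343, against 7.35, 8.45 and 12.7 RPKM in the controls. Each GSK343 library was above the control of its line, while the groups as wholes overlapped. The log2 fold change was 0.74 ± 0.42 (here and below, ± after a log2 fold change is the distance to either end of the 95% confidence interval) with an adjusted p of 0.0372 in limma. The call was lost in 12 of 24 alternatives, among them leaving out the GSK343 library of any line or the control of MDA-MB-436 or MDA-MB-453, with log2 fold changes of 0.56 to 1.02 over all 24. With only MDA-MB-231 and MDA-MB-436 in the fit, 0 ribosomal protein genes passed in either treatment comparison, where 43 of all 12965 genes passed for GSK343 and 16 for shEZH2. The members' medians there were -0.11 and -0.33, against 0.07 and 0.05 for all genes. Under median-ratio scaling the split of 1 higher and 0 lower turned to 0 higher and 1 lower, with RPL39 in the place of RPS27.

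RPL39, RPL7A, RPL34 and RPS16 had the next smallest p-values and did not pass. RPL39 (chrX:119786504-119791643, minus strand) had 2.89, 5.98 and 2.85 RPKM in the libraries labelled GSK343, against 9.48, 6.02 and 5.34 RPKM in the controls. The MDA-MB-231 pair was nearly equal, the groups overlapped, and the difference lay in the other lines (log2 fold change -0.72 ± 0.47, adjusted p = 0.0604 in limma). RPL34 had 28.3, 53.1 and 31.8 RPKM, against 51.8, 47.5 and 55.0 RPKM in the controls (-0.49 ± 0.41), with its MDA-MB-231 library above control. RPL7A stood at -0.42 ± 0.36 and RPS16 at -0.34 ± 0.33, both below their control in every line.

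In the libraries labelled shEZH2, 0 of the 79 genes passed, where 10.6% of all genes tested did, 8.35% higher and 2.28% lower. At an unadjusted p under 0.05 there were 16, 10 of the large and 6 of the small subunit. No count test was run beside limma, since RPKM are not counts. The median log2 fold change was -0.18, against 0.05 for all genes tested, and 38 of the 79 genes had the same sign in all 3 lines. No share over all genes was worked out for the 16 or the 38, so neither count is read as more or less than that of other genes. By line the median was -0.03, -0.22 and -0.45. Without the control of MDA-MB-231, 3 genes passed (RPS27, RPL34 and RPL39). Without the GSK343 library of any line 2 passed, and without the shEZH2 library of MDA-MB-231 1. Of all genes tested, 1173 passed without that control and 410 without that shEZH2 library, against 1377 with every library. Without the GSK343 library of a line, 1270, 1212 and 1399 of all genes passed.

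RPS27 again had a positive change, with 16.3, 8.21 and 25.1 RPKM in the libraries labelled shEZH2, against 7.35, 8.45 and 12.7 RPKM in the same controls (0.65 ± 0.42, adjusted p = 0.0524 in limma). Its MDA-MB-231 library lay just under its control. RPL34 had 31.8, 39.3 and 28.3 RPKM, against 51.8, 47.5 and 55.0 RPKM in the controls, so that its groups did not overlap (-0.63 ± 0.41, adjusted p = 0.0538 in limma). RPL39 had 3.82, 4.42 and 3.15 RPKM, against 9.48, 6.02 and 5.34 RPKM, also without overlap (-0.70 ± 0.47, adjusted p = 0.0566 in limma). RPL14 (-0.43 ± 0.32) and RPL5 (-0.42 ± 0.31) were below their control in every line and did not pass. RPL5 had 140.3, 161.3 and 116.3 RPKM, against 177.5, 212.9 and 166.3 RPKM.

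The size of the difference from control went by line more than by subunit. In MDA-MB-436, 73 of the 79 genes in the GSK343 library and 74 in the shEZH2 library were below the one control, and 72 were below it in both, where 32.4% of all genes tested were. Above control in both were 4 of the 79, RPS27, RPS27L, RPS28 and RPL39L, where 55.0% of all genes tested were. The remaining members, among them RPS18 and RPL36A, lay on both sides of it. In MDA-MB-231 the intervention libraries parted on the RPKM scale. There, 62 genes were above the control in the GSK343 library and 69 below it in the shEZH2 library. Of all genes tested, 46.1% and 49.2% were below it in these libraries. As a share of summed RPKM, however, the members held 3.21% (GSK343) and 2.83% (shEZH2) in this line, both under the control's 3.42%. Without mitochondrially encoded genes in the sum, the share was 4.091% (GSK343) and 3.404% (shEZH2), against 3.972% in the control of this line. The GSK343 library was then above its control, as in the tally of genes, and the shEZH2 library stayed below it. The direction of the share in the GSK343 library thus depends on whether mitochondrially encoded genes are in the sum. In the libraries labelled MDA-MB-453, 51 and 43 genes were below the control, where 47.1% and 45.7% of all genes tested were. Single genes spread most there, with an SD over the 79 genes of 0.48 and 0.46 on the log2 scale, against 0.18 in both MDA-MB-231 comparisons and 0.26 and 0.27 in MDA-MB-436. All genes tested also spread most there, with an SD of 0.54 and 0.53, against 0.43 and 0.46 in MDA-MB-231 and 0.43 and 0.41 in MDA-MB-436. The subunits lay close together: in MDA-MB-436 the GSK343 medians were -0.35 for the large and -0.38 for the small subunit, and the shEZH2 medians -0.46 and -0.43. Both interventions of a line are set against 1 control library, so these counts are descriptions of single libraries with no test, and the tally over both was chosen after the values were seen.

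**Figure D2:**
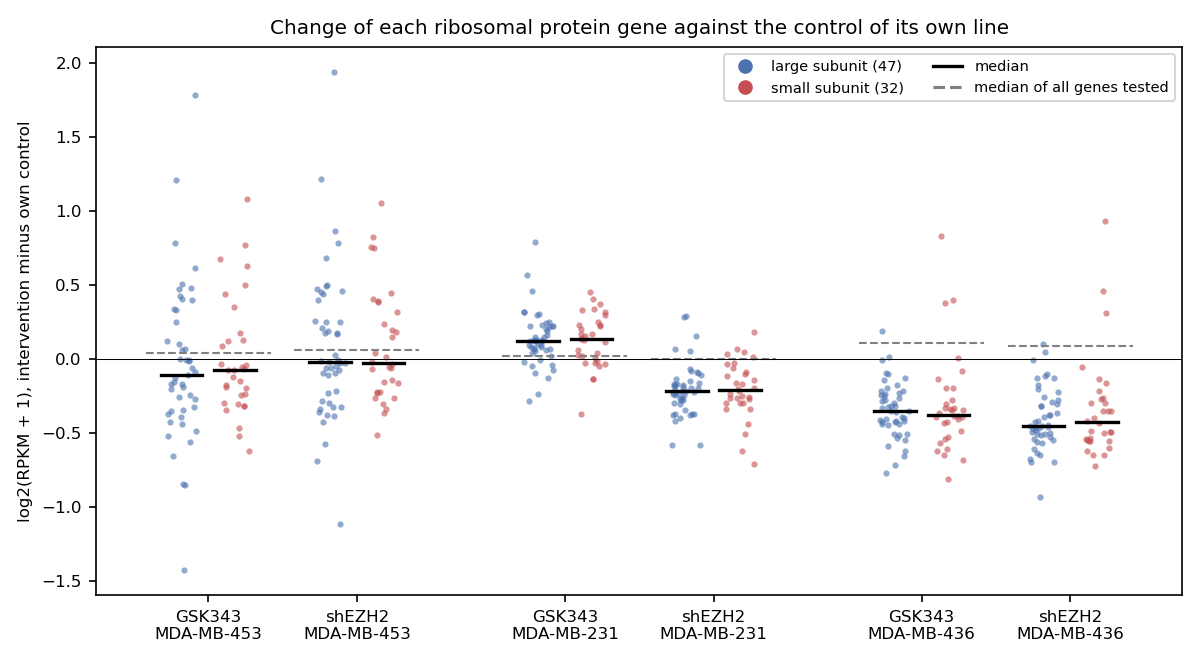
Difference in log2(RPKM + 1) between each intervention library and the control of its own line, 1 point per ribosomal protein gene, large subunit in blue and small subunit in red. Black bars are medians and grey dashed lines the median of all genes tested. The points of MDA-MB-436 lie mostly below 0 (medians of all 79 genes -0.36 and -0.45), and those labelled MDA-MB-453 spread widest.

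The 2 interventions were also set against each other. With GSK343 over shEZH2, 0 of 79 ribosomal protein genes passed, and 0 of all 12965 genes passed (0.0%). At an unadjusted p under 0.05 there were 0 of the 79, and no share over all genes was worked out at that level. The median was 0.10, against 0.01 for all genes (0.20 against 0.02 without replicate 3, the label MDA-MB-453). It came from MDA-MB-231, where it was 0.32, against -0.12 for MDA-MB-453 and 0.05 in MDA-MB-436. With every library scaled to a common RPKM sum, the median over the lines was 0.03, against -0.06 for all genes. RPL9 had the smallest p: 7.12, 11.4 and 7.15 RPKM in the libraries labelled GSK343, against 7.05, 5.44 and 6.17 RPKM in those labelled shEZH2 (0.38 ± 0.41). The interval reaches past 0, and the difference lay in MDA-MB-231. RPL14, RPS25 and RPL27A were among the genes that followed, with 0.18 to 0.20 on the log2 scale.

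The control labelled MDA-MB-453 differed from the other libraries by base composition, which touches every comparison that uses it. Its deviation from the mean of the other 2 controls correlated with the GC content of the transcript with a Spearman coefficient of -0.56 over the 79 genes and -0.76 over 12929 tested genes with a known GC content. In the GSK343 library labelled MDA-MB-453 the coefficients were -0.01 and -0.03, and in the shEZH2 library -0.22 and -0.16. Genes share the libraries, so these are descriptions. RPL41, which encodes the shortest ribosomal protein, had 77.4 and 86.5 RPKM in the GSK343 and shEZH2 libraries labelled MDA-MB-453, against 21.8 RPKM in their control. RPLP1 had 135.5 and 136.3, against 58.2 RPKM, and RPS15 had 45.1 and 46.8, against 26.0 RPKM. The transcript of RPS15 had a GC content of 61.6%, whereas those of RPL41 (48.1%) and RPLP1 (47.7%) lay under the members' median of 49.5%. These values are for 1 annotated transcript per gene, of 699 bases for RPL41 and 1197 for RPLP1, which need not be the transcript expressed here. None of the 3 passed in either treatment comparison. How much of the treatment differences labelled MDA-MB-453 goes with GC was not tested for single genes. A GC correction in each library was added after seeing the data. After it, 2 members passed for GSK343 (RPS27 and RPL39) and 3 for shEZH2 (RPS27, RPL35 and RPS16). Of all genes tested, 1848 and 2098 passed with this correction, against 1018 and 1377 without it.

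**Figure D3:**
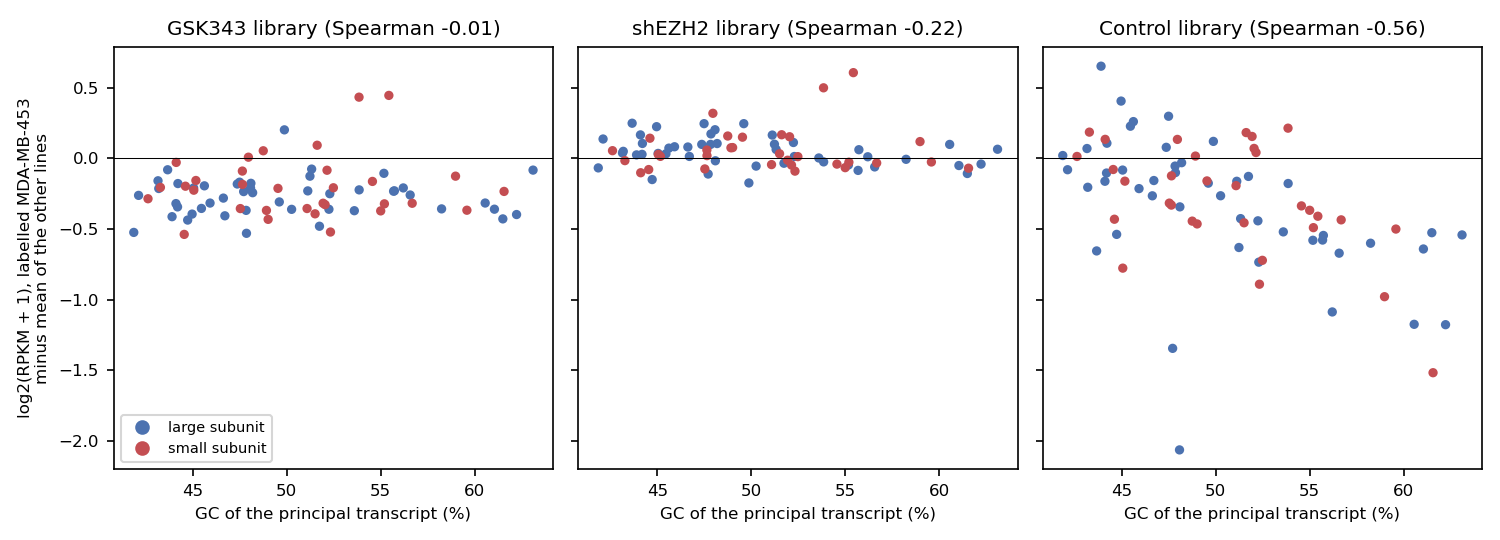
Deviation of each library labelled MDA-MB-453 from the mean of the other lines under the same treatment, in log2(RPKM + 1), against the GC content of the transcript in percent, 1 point per ribosomal protein gene. In the control panel GC-rich genes lie lower (Spearman -0.56), and in the GSK343 and shEZH2 panels the coefficients are -0.01 and -0.22.

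More ribosomal protein genes passed between lines than between treatments, and they moved in both directions. With MDA-MB-231 over MDA-MB-436, 42 of 79 passed, where 63.4% of all genes tested passed, 28.6% higher and 34.8% lower. Of the 42, 25 were higher and 17 lower in MDA-MB-231. The large subunit gave 14 higher and 7 lower of 47 and the small subunit 11 higher and 10 lower of 32, so that the module did not move as a whole. The median log2 fold change was 0.18 for the 79 genes, against -0.09 for all genes tested, and it was 0.22 in the large and -0.06 in the small subunit. All 3 libraries of MDA-MB-231 were above all 3 of MDA-MB-436 for 19 genes and below them for 19, where 29.5% and 35.4% of all genes stood apart in these directions, 64.9% in all. The other 41 overlapped. The 3 libraries of a line share its cells and differ in treatment, which is a term of the fit.

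RPS28, one of the proteins at the mRNA exit of the small subunit (chr19:8321158-8323340, plus strand), differed most. It had 29.9, 24.5 and 28.7 RPKM in the GSK343, shEZH2 and control libraries of MDA-MB-231, against 3.36, 3.61 and 2.36 RPKM in those of MDA-MB-436. The groups stood far apart, with 936 to 1018 reads in MDA-MB-231 libraries against 84 to 136 in MDA-MB-436. The log2 fold change was 2.81 ± 0.34 (adjusted p = 3.05e-08 in limma), and the ratio of mean RPKM was 8.91. The libraries labelled MDA-MB-453 lay between, with 14.7, 14.3 and 10.6 RPKM. Of the exonic bases of RPS28, 21.4% overlap genes on the opposite strand (NDUFA7, KANK3 and AC010323.1), and without a stated strand setting their reads cannot be told apart from its own.

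RPS10, which lies near the mRNA entry, had 7.14, 4.80 and 5.96 RPKM in MDA-MB-231, against 0.88, 1.51 and 2.03 RPKM in MDA-MB-436 (1.51 ± 0.51, adjusted p = 0.00015 in limma), without overlap. Its readthrough gene RPS10-NUDT3 covers 39.4% of its exonic bases on the same strand, which makes its level uncertain. RPL10A, of the mobile L1 stalk (chr6:35468408-35470785, plus strand), had 285.0, 229.9 and 278.0 RPKM, against 111.6, 109.4 and 149.4 RPKM (1.10 ± 0.35). RPL6 (1.01 ± 0.37) and RPS18 (0.97 ± 0.33) followed. RPS29 (0.85), RPS25 (0.78) and RPL15 (0.76) complete the 8 genes with the largest positive changes. Of these 8, 5 belong to the small subunit. Genes on the opposite strand (CCDC84 and TRAPPC4) overlap 20.8% of the exonic bases of RPS25.

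Among the genes lower in MDA-MB-231, RPL8 had 749.7, 647.8 and 691.0 RPKM, against 1555, 1579 and 1823 RPKM in MDA-MB-436 (-1.24 ± 0.40, adjusted p = 0.000102 in limma). RPL4, whose extension lines the exit tunnel (chr15:66498015-66524532, minus strand), had 86.1, 78.3 and 82.3 RPKM, against 182.8, 178.7 and 222.9 RPKM (-1.23 ± 0.34). In both genes every MDA-MB-231 library was under every MDA-MB-436 library. RPS27 had 10.9, 8.21 and 8.45 RPKM, against 23.2, 25.1 and 12.7 RPKM (-1.02 ± 0.42), also without overlap. RPL10, a late-joining subunit protein, stood at -0.92, RPS20 at -0.89, RPL13 at -0.87 and RPS12 at -0.83. Of the exonic bases of RPL10, 52.7% overlap genes on the opposite strand. The remaining 17 genes higher in MDA-MB-231 lay between 0.40 (RPS16) and 0.76 (RPS19), among them RPL5 (0.48), the partner of MDM2, and RPS3 (0.54), at the mRNA entry. The remaining 10 lower ones lay between -0.69 and -0.41 (RPL3), and included RPS14 (-0.69), RPS4X (-0.66) and the paralog RPS27L (-0.44), lower together with RPS27. RPS19 and RPS26, known from Diamond-Blackfan anaemia, were both higher (0.76 and 0.70). The 8 genes with the largest positive changes, and the 7 lower ones named from RPL8 to RPS12, kept their call in each of the 21 or 22 alternatives run for them. With the 6 libraries of these lines alone, 46 genes passed, among them all 42, while leaving out the GSK343 library of MDA-MB-436 gave 27 (12 higher and 15 lower). The split also turned to more lower than higher genes without the GSK343 library of MDA-MB-231 (13 higher and 19 lower). It did so too without the shEZH2 library of MDA-MB-436 (13 higher and 15 lower). Counts over all genes are not given for these left-out fits, so the shifts are not read as particular to the members.

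**Figure D4:**
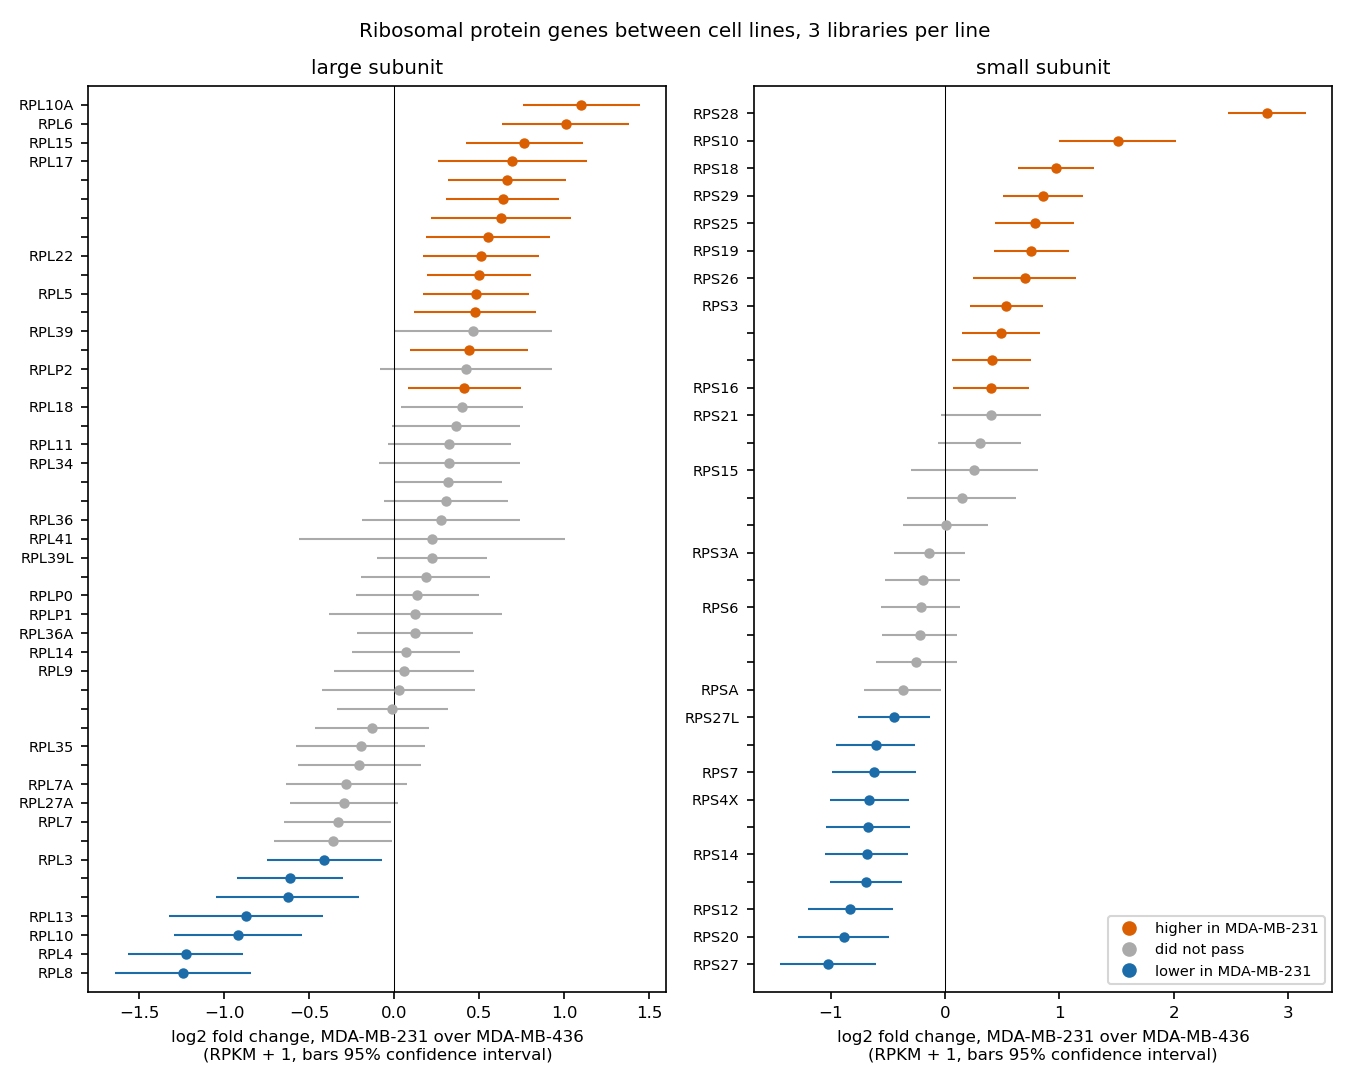
Log2 fold change of each tested ribosomal protein gene with MDA-MB-231 over MDA-MB-436, large subunit left and small subunit right. Points are estimates from 3 libraries per line, bars 95% confidence intervals, and colours mark genes that passed higher (25), lower (17) or not at all, with labels for genes named in the text. RPS28 at 2.81 lies farthest from 0, and both panels hold called genes on either side.

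A TOP start read from the annotated base was found in 12 of 21 genes higher in MDA-MB-231, in 6 of 11 lower, and in 28 of 31 that did not pass, among genes with a RefSeq promoter. The split was noticed after the values were seen and has no test. RPS28, RPL10A and RPL4, shown above, are among the called genes whose pyrimidine run begins after the annotated base.

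The libraries labelled MDA-MB-453 were compared with each of the other lines, within the limits on their label. Over MDA-MB-231, 18 of 79 genes passed, where 31.3% of all genes tested did (20.1% higher and 11.2% lower). Of these 18, 1 was higher, RPL4 (0.66 ± 0.34), and 17 were lower, 10 of the large and 7 of the small subunit. RPS28 led the lower ones (-1.02 ± 0.34), followed by RPS15, RPS21, RPLP2 and RPL36 (-0.74 to -0.68), RPS19 (-0.64), RPL10A (-0.63) and RPL18 (-0.55). Without the control labelled MDA-MB-453 there were 6 calls, 2 higher and 4 lower, and RPS15, RPS21, RPLP2, RPL36 and RPL18 lost their calls. Leaving out the GSK343 library labelled MDA-MB-453 also gave 6 calls with the same split, and leaving out the GSK343 library of MDA-MB-231 gave 3, of which 2 were higher and 1 lower. Leaving out the shEZH2 library of MDA-MB-231 gave 9 and that of MDA-MB-436 gave 11. How many of all genes passed in these fits is not given here, so the lower counts are not read as particular to the members.

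Over MDA-MB-436, 20 of 79 passed, where 34.7% of all genes tested did (18.6% higher and 16.1% lower), 6 higher and 14 lower. The higher ones were RPS28 (1.79 ± 0.34), RPS10 (0.97 ± 0.51), RPL6 (0.63), RPS25 (0.54), RPL10A (0.47) and RPS18 (0.45). The lower ones were led by RPL13 (-0.87 ± 0.45), RPL8 (-0.81 ± 0.40), RPS20 (-0.77), RPL10 (-0.69), RPS12 (-0.69) and also included RPS14 and RPS7 (each -0.62). Without the control labelled MDA-MB-453, 9 genes passed. Leaving out the GSK343 library labelled MDA-MB-453 also gave 9, and leaving out the GSK343 or the shEZH2 library of MDA-MB-436 gave 10. These counts too stand without the number of all genes that passed, and are not read as particular to the members. The line comparisons share libraries, so their values stand side by side and are not independent.

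For most genes the level labelled MDA-MB-453 lay between the other lines or below both. In the GSK343 libraries 37 of 79 ribosomal protein genes were between MDA-MB-231 and MDA-MB-436 and 42 below both, and in the shEZH2 libraries 62 were between and 6 below. In the controls 34 were between and 39 below. Of all genes tested, 73.7%, 82.9% and 46.9% lay between in the GSK343, shEZH2 and control libraries, and 14.96%, 6.78% and 22.6% lay below both.

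**Figure D5:**
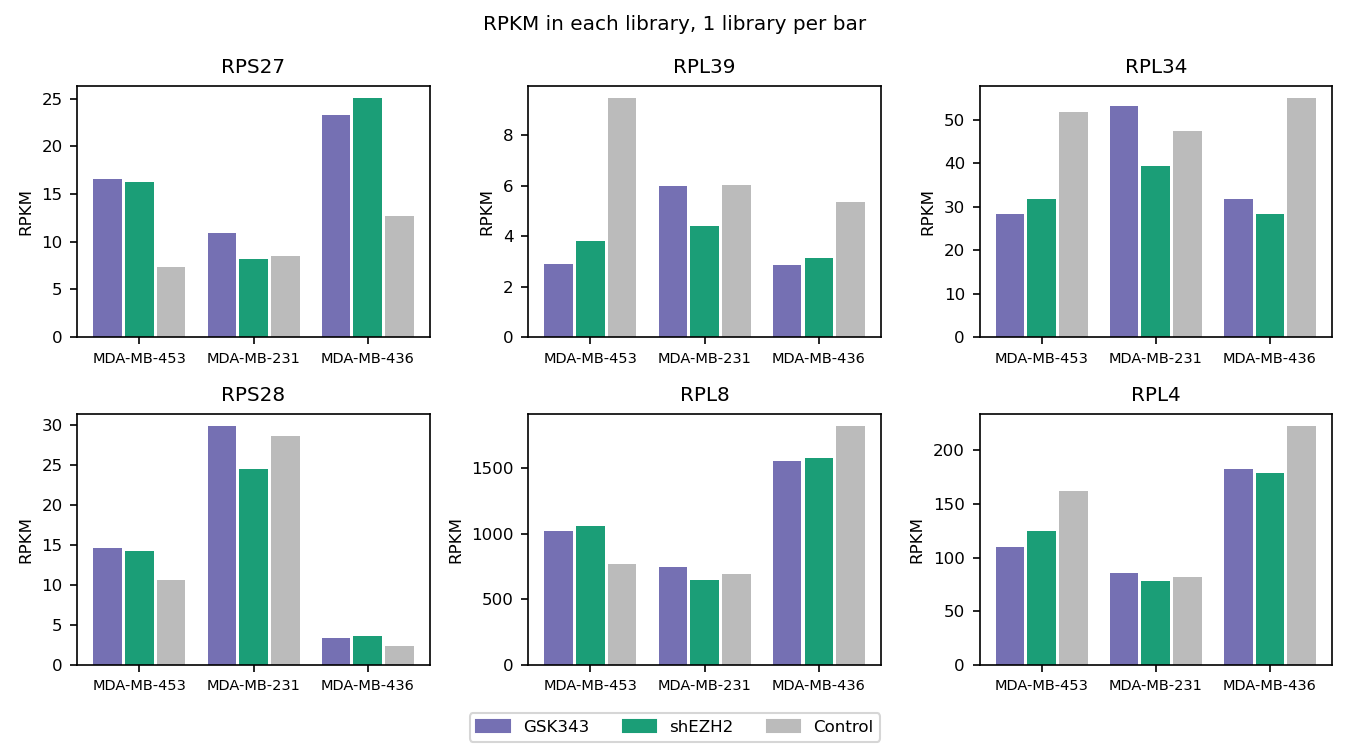
RPKM of 6 ribosomal protein genes, 1 bar per library, grouped by line with GSK343, shEZH2 and control from left to right and axes starting at 0. RPS27 is higher than its control in 5 of the 6 intervention libraries, RPL39 and RPL34 are below it in most, and RPS28, RPL8 and RPL4 differ by line more than by treatment.

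Genes that make and regulate ribosomes were read beside them, from lists drawn up with earlier results of these data known. Of 38 ribosome biogenesis genes, 4 were lower and 0 higher in the libraries labelled GSK343, and 10 were lower and 0 higher in those labelled shEZH2. Of all genes tested, 1.6% were lower and 6.25% higher for GSK343, and 2.28% lower and 8.35% higher for shEZH2. The list had a median log2 fold change of -0.25 and -0.42. The nucleolar proteins NPM1 (-0.70 ± 0.35 and -0.79 ± 0.35) and NCL (-0.57 ± 0.32 and -0.67 ± 0.32) and the pseudouridine synthase DKC1 (-0.62 and -0.73) were lower under both labels, which share the controls. UBTF, the ribosomal DNA factor, was lower under GSK343 (-0.53), and GAR1, a partner of DKC1, under shEZH2 (-0.82). Under GSK343 the call was lost in 7 (NPM1), 12 (NCL), 11 (DKC1) and 16 (UBTF) of 24 alternatives. Under shEZH2 it was lost in 5 (NPM1), 7 (NCL), 7 (DKC1) and 6 (GAR1) of 24. Of 77 mitochondrial ribosomal protein genes, 1 was higher (MRPS24, 0.85 ± 0.47) and 3 lower under GSK343, and 0 higher and 7 lower under shEZH2. MRPL1 was lower under both labels (-0.80 ± 0.39 and -1.02 ± 0.39). The MRPS24 call was lost in 10 of 23 alternatives, and the MRPL1 calls in 6 and 5 of 24.

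Of 25 tested translation factors and TOP messenger RNAs, 1 was lower under each label (all genes 1.6% and 2.28%), the RNA-binding protein HNRNPA1 (-0.60 ± 0.33 and -0.70 ± 0.33). Of 10 host genes of small nucleolar RNAs, which begin with TOP starts as well, 0 passed under either label, and SNHG12 came nearest (0.59 ± 0.39 and 0.53 ± 0.39). Of 21 tested regulators, 2 were higher under both labels (all genes 6.25% and 8.35%): the cell cycle inhibitor CDKN1A (1.43 ± 0.35 and 1.48 ± 0.35) and SESN2, an inhibitor of mTOR signalling (1.07 ± 0.40 and 0.84 ± 0.40). Among the 6 ribosomal protein genes that the symbol rule leaves out, RPL22L1 was lower under shEZH2, with 6.08, 5.93 and 7.80 RPKM, against 12.03, 8.72 and 11.7 RPKM in the controls (-0.63 ± 0.36, adjusted p = 0.033 in limma). The call of RPL22L1 was lost in 11 of 24 alternatives. Its partner RPL22 stood at -0.24 ± 0.34 and did not pass. With MDA-MB-231 over MDA-MB-436, 3 of the 6 were higher, where 28.6% of all genes tested were, among them RPL7L1 (1.999 ± 0.302) and RPL36AL (1.46 ± 0.32), and RPL26L1 was lower (-0.80 ± 0.40; all genes 34.8%). Without replicate 3, the libraries labelled MDA-MB-453, CDKN1A under GSK343 (1.39 ± 0.46, adjusted p = 0.0487 in limma) was the only gene of these 6 lists that passed for either label. In that fit the medians of the ribosome biogenesis list were -0.23 and -0.45.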

How the data were processed

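The deposited values are RPKM, reads per kilobase of gene scaled to library size, in 1 table with a column per library. STAR, HTSeq and GRCh38 are named in the submitters' processing notes. Versions, annotation, strand setting and the handling of reads with several matches were not given in the sources used here. Columns were matched to samples by line and treatment in their headers. RPKM steps gave whole reads for 100% of low values (within 0.05 reads), which set the depth of 1.48e+07 to 1.83e+07 reads. Reads were not fitted, since RPKM are not counts.

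Genes with at least 1 RPKM in at least 3 of 9 libraries (12965) were tested on log2(RPKM + 1) with limma 3.58.1 in R 4.3.3 (mean-variance trend, two-sided, Benjamini-Hochberg over all 12965 genes, threshold 0.05), with line and treatment as terms and 4 residual degrees of freedom. The scale understates changes of low genes. Treatments are paired by cell line: deviations from the group mean correlated at 0.36 to 0.95 in the 9 same-line pairs and -0.91 to 0.09 in the 18 others. Named genes are, per treatment comparison, those past the threshold, filled to 5 by smallest p. Per line comparison they are up to 8 per direction by size. To these come the most and least abundant members, the paralogs with their partners, and up to 4 genes per list. RPL41, RPLP1 and other genes low in the control labelled MDA-MB-453 were chosen after their values were seen. A few genes that this rule selects are not reported here, though counts and medians include them. The members and lists were chosen with earlier results of these data known.

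Coordinates and transcript GC come from GENCODE 29 (GRCh38), which holds 92.5% of the identifiers in the same version, and sequences from RefSeq (GRCh38.p14). The fit was tested on simulated data of 12965 genes. It recovered 96% of 100 2-fold and 38% of 100 1.5-fold changes for GSK343 over control, with 10 false calls among 144. For shEZH2 over control it recovered 98% and 39%, with 25 false calls among 162, above the nominal 5% in both. Alternatives were other pseudocounts (0.1 and 0.5), filters, scalings, moderation, the fit without the line term, the 6 libraries of a comparison alone, and left-out libraries or lines.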

Additional observations from a re-analysis of the deposited data

Results flagged for a closer look

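Of 43 ribosomal protein genes examined, 17 lay on opposite sides of control in different lines, with both intervention libraries of a line on the same side. No share over all genes was worked out for this count, so it is not read as particular to these genes. Of all genes tested, 48.4%, 37.7% and 55.0% were above control in both libraries (MDA-MB-453, MDA-MB-231 and MDA-MB-436), and 41.3%, 34.0% and 32.4% below it. The values are the mean log2 difference of the GSK343 and shEZH2 libraries from control. The differences between lines were not tested, both interventions share 1 control per line, and the scan was chosen after the values were seen. In most of these genes the libraries labelled MDA-MB-453, whose control stands apart by GC content, lay above their control and those of MDA-MB-436 below it. The part of GC content in single genes was not tested.

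Among genes with a value in all 3 lines (MDA-MB-453, MDA-MB-231 and MDA-MB-436 in this order), RPL13 had 0.82, -0.14 and -0.19, and RPS15 had 0.80, -0.50 and -0.64. RPLP2 had 0.70, -0.23 and -0.50, and RPL36 had 0.41, -0.41 and -0.68. RPS20 had 0.71, 0.18 and -0.11, and RPS12 had 0.28, 0.19 and -0.18. Another set was above control in MDA-MB-231 and below it elsewhere. RPS29 had -0.18, 0.23 and -0.38, RPL15 -0.096, 0.30 and -0.26, RPL7 -0.12, 0.15 and -0.13, and RPS3A -0.23, 0.11 and -0.18. RPS27L had -0.031, 0.18 and 0.35.

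For the other genes the MDA-MB-231 libraries lay on both sides of their control, and values are for MDA-MB-453 and MDA-MB-436. RPS10 had 0.68 and -0.48, RPL8 0.43 and -0.22, RPS21 0.26 and -0.67, and RPL17 0.44 and -0.60. RPL18 had 0.18 and -0.36, and RPS7 0.33 and -0.42. Other genes on the same strand, among them the readthrough gene RPL17-C18orf32, cover 32.7% of the exonic bases of RPL17.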

How the results depend on the processing

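Of 1214 alternative values for 54 results of genes selected by the naming rule, 1088 kept direction and side of the threshold, 94 lost the call, 32 gained one and 0 reversed. Of 40 such results past the threshold, 18 kept their call in every alternative run. For GSK343 over control, where 1 member passed, 0 passed without a filter on low values, at a common sum or without the replicate block (the line term), where 14, 521 and 2 of all genes passed, against 1018. There were 2 among the 6 libraries alone or after GC correction, where 1262 and 1848 of all genes passed. Leaving out libraries or a line gave 0 to 3 (3 without the control of MDA-MB-231, 0 without the GSK343 or control library of MDA-MB-436 or MDA-MB-453). For shEZH2 over control, where 0 passed, 2 passed with a mean of at least 5 RPKM or robust variances. There were 3 with median-ratio scaling, the 6 libraries alone or GC correction, and 1 at a common sum of the other genes. Of all genes, 937, 1399, 1416, 1553, 2098 and 1266 passed in these fits, in this order, against 1377. Leaving out libraries gave 0 to 3. For MDA-MB-231 over MDA-MB-436 (42), leaving out libraries gave 27 to 49. For MDA-MB-453 over MDA-MB-231 (18), 2 passed without a filter, 30 with median-ratio scaling, 9 without the replicate block and 28 after GC correction, and leaving out libraries gave 3 to 24. Median-ratio scaling moved the median of all genes there to -0.05, against 0.05. For MDA-MB-453 over MDA-MB-436 (20), 1 passed without a filter, and leaving out libraries gave 9 to 22. The block changed no other count of calls by over 1.5 times. GC correction and the alternatives for the list genes were added after seeing the data. The cause of these changes was not tested.

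The members' share of summed RPKM was 3.77% (GSK343), 3.53% (shEZH2) and 4.04% (control) without mitochondrially encoded genes, and 2.16%, 2.11% and 2.43% without the 5 most abundant members. Without these 5 the ratio of small to large subunit was 0.47, 0.47 and 0.48. Leaving out a compared line gives no value, and the mitochondrial total does not enter the subunit ratio. Genes near 1 RPKM rest on few reads (39 to 77 for RPL7).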
